A study of Sus scrofa with 13 samples.

Results

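The 35 genes described here are the cadherins with a plain number (22 symbols made of CDH and digits) and the protocadherins (13 symbols that begin with PCDH). They were picked out by symbol from 27339 gene rows of count tables for 5-hydroxymethylcytosine (5hmC), an oxidised form of methylated cytosine in DNA. The set itself was chosen with earlier results of these data known. The cells were mesenchymal stem cells, a stromal cell type that grows on plastic, expanded from the abdominal fat of female domestic pigs. All libraries came from pigs fed a 2% cholesterol diet, with the fat taken 3 weeks after a coil had been placed to narrow 1 renal artery. In the hypoxia group (6 libraries) the flasks spent 48 hours under 1% oxygen, while the normoxia group (6 libraries) stayed at 20% oxygen. Both groups therefore share the diet, the stenosis and the culture, and no library from a healthy pig enters the comparison. The sample titles open with the numbers 110, 16, 21, 33, 49 and 4, each of which has 1 library in hypoxia and 1 in normoxia. The labels do not give the meaning of the numbers, and a p-value below reflects only how far these libraries vary, part of which may be technical. DNA was sheared, denatured and captured with an antibody to 5hmC.

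Classical cadherins (types I and II) are calcium-dependent adhesion proteins that bind the same protein on a neighbouring cell. Catenins link them to the actin skeleton. Type I members such as E-cadherin and N-cadherin carry strong adhesion, and mesenchymal cells typically use N-cadherin and OB-cadherin in place of E-cadherin. Protocadherins share the extracellular repeats but lack the catenin-binding tail, and most are studied in the nervous system. 5hmC is made from 5-methylcytosine by the TET enzymes, which need oxygen as a substrate, and it tends to lie over gene bodies and enhancers. The values below are levels of a DNA mark, not of RNA or protein.

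Each table summed to 15569948 to 27428482 reads. Of these, 263578 to 714002 (1.69 to 2.89%) fell in genes and 320 to 999 in the 35 members. The normoxia library of number 21 stood apart, with the fewest gene reads, the lowest share in genes (1.69%) and the largest share of low alignment quality (10.3%). Levels are given as CPM, the usual depth-scaled count of a gene, here over TMM-scaled totals of reads in tested genes, and 1 read was worth 1.54 to 4.83 CPM depending on the library. CPM are not corrected for gene length, so levels are compared between libraries and never between genes. The labelled cell type could not be checked on RNA. On DNA, the 7 stromal marker genes summed to 657 to 1245 CPM and the 9 endothelial ones to 361 to 650 CPM. The summed level was 574 to 927 CPM over 9 immune genes, 74.3 to 273 CPM over 7 epithelial genes and 110 to 407 CPM over 7 smooth muscle and pericyte genes. Neural and adipocyte genes summed to 116 to 265 CPM and 122 to 439 CPM. Of all these markers, 1 endothelial and 1 neural gene were at 0 in all libraries.

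Of the 35 members, 18 had enough reads to be tested (13 cadherins and 5 protocadherins), and these were the same 18 whose mean was at least 10 reads per library. The other 17 had means of 1.25 to 8.33 reads, and 9 of them were at 0 in at least 1 library. Cadherins held 6300 reads over the 12 libraries and protocadherins 1985. CDH23 alone gave 2238 of the cadherin reads (35.5%), with 30.7 to 40.5% in single libraries. PCDH18 gave 597 of the protocadherin reads (30.1%).

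Summed over the 22 cadherins, the 5hmC level was 1254 ± 41.5 CPM in hypoxia and 1192 ± 96.8 CPM in normoxia (SD, n = 6 each). Hypoxia libraries spanned 1196 to 1319.7 CPM and normoxia libraries 1063 to 1304 CPM, so the groups overlapped. The mean difference was 62.3 CPM, smaller than the 87.6 CPM SD of the differences within numbers, and hypoxia was the higher library in 5 of 6 numbers. Without CDH23 the sums were 808 ± 44.1 and 777 ± 76.3 CPM, and hypoxia was higher in 4 of 6 numbers. Summed over the 13 protocadherins, the level was 376 ± 34.6 CPM in hypoxia (342 to 424) and 378 ± 89.8 CPM in normoxia (241 to 487). That difference of -2.01 CPM lay far inside its SD of 77.6 CPM, and hypoxia was higher in 2 of 6 numbers. The ratio of the cadherin sum to the protocadherin sum was 3.36 ± 0.321 in hypoxia and 3.35 ± 1.1 in normoxia. Hypoxia libraries ranged from 2.99 to 3.76. The normoxia ratio rested on the library of number 21, which had a ratio of 5.4 from 50 protocadherin reads, and without it the mean was 2.94 ± 0.50 (n = 5, 2.26 to 3.61).

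**Figure D1:**
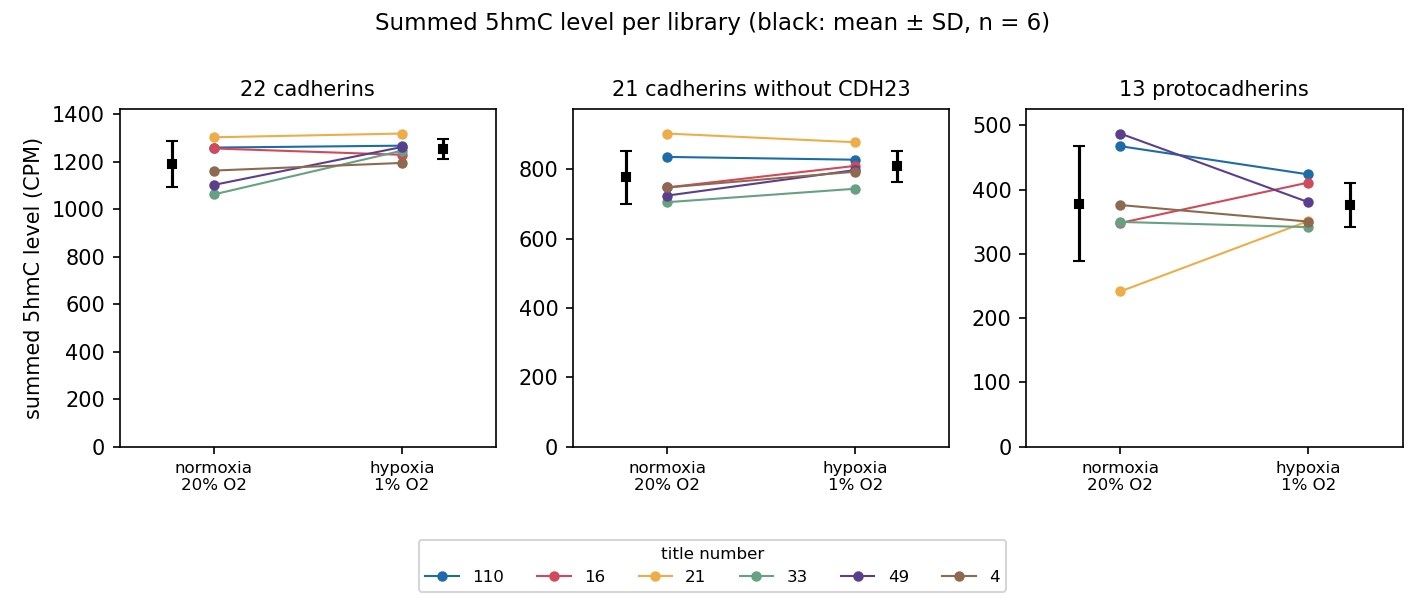
Summed 5hmC level in CPM (vertical axis) in normoxia and hypoxia libraries for the 22 cadherins, the 21 cadherins without CDH23 and the 13 protocadherins. Coloured lines join the libraries that share a title number, and black marks are means with SD (n = 6 each). The groups overlap in each panel, and the lowest protocadherin sum, 241 CPM, is the normoxia library of number 21.

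The type I cadherins were CDH1, CDH2, CDH3, CDH4 and CDH15, of which the first 3 were tested. CDH1 encodes E-cadherin, the adhesion molecule of epithelia. Its level in hypoxia ran from 67.4 through a median of 94.3 to 126 CPM, and in normoxia from 64.2 through 73.0 to 116 CPM. The groups overlapped over most of their range, yet within each of the 6 numbers the hypoxia library was the higher. The edgeR estimate was a log2 fold change of 0.27 ± 0.239 (SE), with a 95% interval of -0.23 to 0.76. CDH2 encodes N-cadherin, a main adhesion molecule of mesenchymal and neural cells. It ran from 60.9 through 111 to 191 CPM in hypoxia and from 60.1 through 87.1 to 218 CPM in normoxia. Both of its highest libraries carried number 110 (191 CPM in hypoxia, 218 CPM in normoxia), and within numbers hypoxia was higher in 3 and lower in 3. Its log2 fold change was 0.12 ± 0.321 (-0.55 to 0.78). CDH3, the gene of P-cadherin, averaged 21.8 ± 7.65 CPM in hypoxia and 27.9 ± 11.7 CPM in normoxia (log2 fold change -0.36 ± 0.328), with hypoxia lower in 4 of 6 numbers. CDH4, the gene of R-cadherin, averaged 3.75 reads per library, and CDH15, the gene of the muscle cadherin, 1.25 reads. Both were at 0 in at least 1 library and too low for the count filter.

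Type II cadherins formed the larger classical group, with 13 rows of which 7 were tested. CDH11 encodes OB-cadherin, the type II cadherin typical of mesenchymal cells and osteoblasts. Its level was 64.9, 98.4 and 126 CPM (lowest, median, highest) in hypoxia and 32.7, 107 and 187 CPM in normoxia. The normoxia libraries enclosed the whole hypoxia range, and the log2 fold change was -0.17 ± 0.310 (-0.81 to 0.47). CDH5 encodes VE-cadherin, the adhesion molecule of endothelial junctions. It ran from 23.9 through 46.6 to 77.3 CPM in hypoxia and from 26.1 through 35.7 to 43.5 CPM in normoxia. Hypoxia held both the lowest and the highest CDH5 libraries, and the log2 fold change was 0.40 ± 0.307 (-0.24 to 1.03). CDH9 ran from 35.1 through 54.9 to 80.4 CPM in hypoxia and from 20.1 through 43.7 to 116 CPM in normoxia. Hypoxia was higher in 5 of 6 numbers for CDH9, the exception being number 21, where it held 79.6 CPM in hypoxia and 116 CPM in normoxia. The fold change of CDH9 was 0.22 ± 0.356 on the log2 scale.

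The other 4 tested type II genes lay on both sides of 0. CDH8 averaged 36.8 ± 11.1 CPM in hypoxia and 29.4 ± 12 CPM in normoxia (log2 fold change 0.36 ± 0.317). CDH24 averaged 66.9 ± 23.0 and 58.2 ± 30.3 CPM (0.18 ± 0.317). CDH20 averaged 52.7 ± 12.2 and 60.5 ± 11.7 CPM (-0.19 ± 0.241), with hypoxia lower in 5 of 6 numbers. CDH6, the gene of the kidney cadherin, averaged 32.6 ± 6.56 and 36.6 ± 15.4 CPM (-0.11 ± 0.301). The 6 type II genes that were not tested (CDH7, CDH10, CDH12, CDH18, CDH19 and CDH22) averaged 1.33 to 7.75 reads. CDH18 averaged 22.7 ± 6.89 CPM in hypoxia and 14.6 ± 9.03 CPM in normoxia, from 2 to 14 reads per library.

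The remaining 4 cadherins were CDH13, CDH16, CDH17 and CDH23. CDH23 encodes a long cadherin of the hair-cell tip link in the inner ear, and its row had by far the most reads of all members, 83 to 270.0 per library. Its level was 403, 441 and 504 CPM (lowest, median, highest) in hypoxia and 358, 408 and 509 CPM in normoxia. Its means were 446 ± 35.4 and 415 ± 52.4 CPM, and hypoxia was higher in 4 of 6 numbers. The log2 fold change was 0.10 ± 0.173, the smallest SE of any member, and its 95% interval ran from a fold of 0.838 to 1.38. CDH13 encodes T-cadherin, a lipid-anchored receptor of adiponectin that lacks a cytoplasmic tail. It averaged 51.0 ± 21.0 CPM in hypoxia and 48.4 ± 25.7 CPM in normoxia (log2 fold change 0.11 ± 0.344). CDH17, the liver-intestine cadherin, averaged 41.1 ± 13.7 and 52.2 ± 13.1 CPM (-0.31 ± 0.278), and hypoxia was lower in 4 of 6 numbers. CDH16, the kidney-specific cadherin, was not tested and averaged 5.08 reads.

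Protocadherins of the delta-1 group carry a conserved motif that binds protein phosphatase 1. PCDH9 ran from 33.2 through 39.3 to 57.0 CPM in hypoxia and from 44.4 through 50.2 to 71.2 CPM in normoxia. The hypoxia library was the lower in each of the 6 numbers, by the smallest margin in number 4 (50.8 against 50.9 CPM). Across groups the ranges still overlapped, and the log2 fold change was -0.35 ± 0.248 (-0.86 to 0.17). PCDH7 ran from 13.7 through 26.3 to 39.1 CPM in hypoxia and from 8.26 through 23.5 to 59.3 CPM in normoxia. Hypoxia libraries of PCDH7 lay inside the normoxia range, and its log2 fold change of -0.31 had the largest SE of any tested member, 0.394. PCDH1 (1.33 reads per library) and PCDH11X (8.33 reads) were not tested.

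The delta-2 protocadherins bind the actin-regulating WAVE complex through their cytoplasmic tails. PCDH18 ran from 85.9 through 114 to 148 CPM in hypoxia and from 63.2 through 133 to 157 CPM in normoxia. Its means nearly coincided (114 ± 26.7 and 117 ± 39.7 CPM), with a log2 fold change of -0.05 ± 0.256. PCDH17 ran from 18.5 through 68.8 to 81.8 CPM in hypoxia and from 18.7 through 86.6 to 120.3 CPM in normoxia (log2 fold change -0.25 ± 0.363). Both of its lowest libraries carried number 16, and hypoxia was lower in 5 of 6 numbers. PCDH19 is the X-linked protocadherin whose loss causes an epilepsy of females. It ran from 29.0 through 46.7 to 77.3 CPM in hypoxia and from 11 through 32.2 to 46.2 CPM in normoxia. Hypoxia was higher in 5 of 6 numbers, the exception being number 4 (29.0 CPM in hypoxia, 46.2 CPM in normoxia). Its log2 fold change, 0.57 ± 0.336 (-0.12 to 1.27), was the furthest from 0 among the members. With the title number as a block the estimate was 0.59 ± 0.291. PCDH10, the remaining gene of the group, was not tested and averaged 8.0 reads.

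No other protocadherin was tested. PCDH12, a protocadherin of endothelial cells, averaged 3.67 reads, PCDH15, a partner of CDH23 in the tip link, 5.83 reads, and PCDH20 2.33 reads. The clustered protocadherins give neurons their surface identity through a choice among many similar first exons. Only PCDHA11 (2.08 reads) and PCDHB6 (2.42 reads) appeared among the rows, with a summed level of 0 to 20.1 CPM per library. Clustered genes share near-identical sequence with their neighbours, so these values are uncertain. How the counting treated reads that match several copies was not tested.

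**Figure D2:**
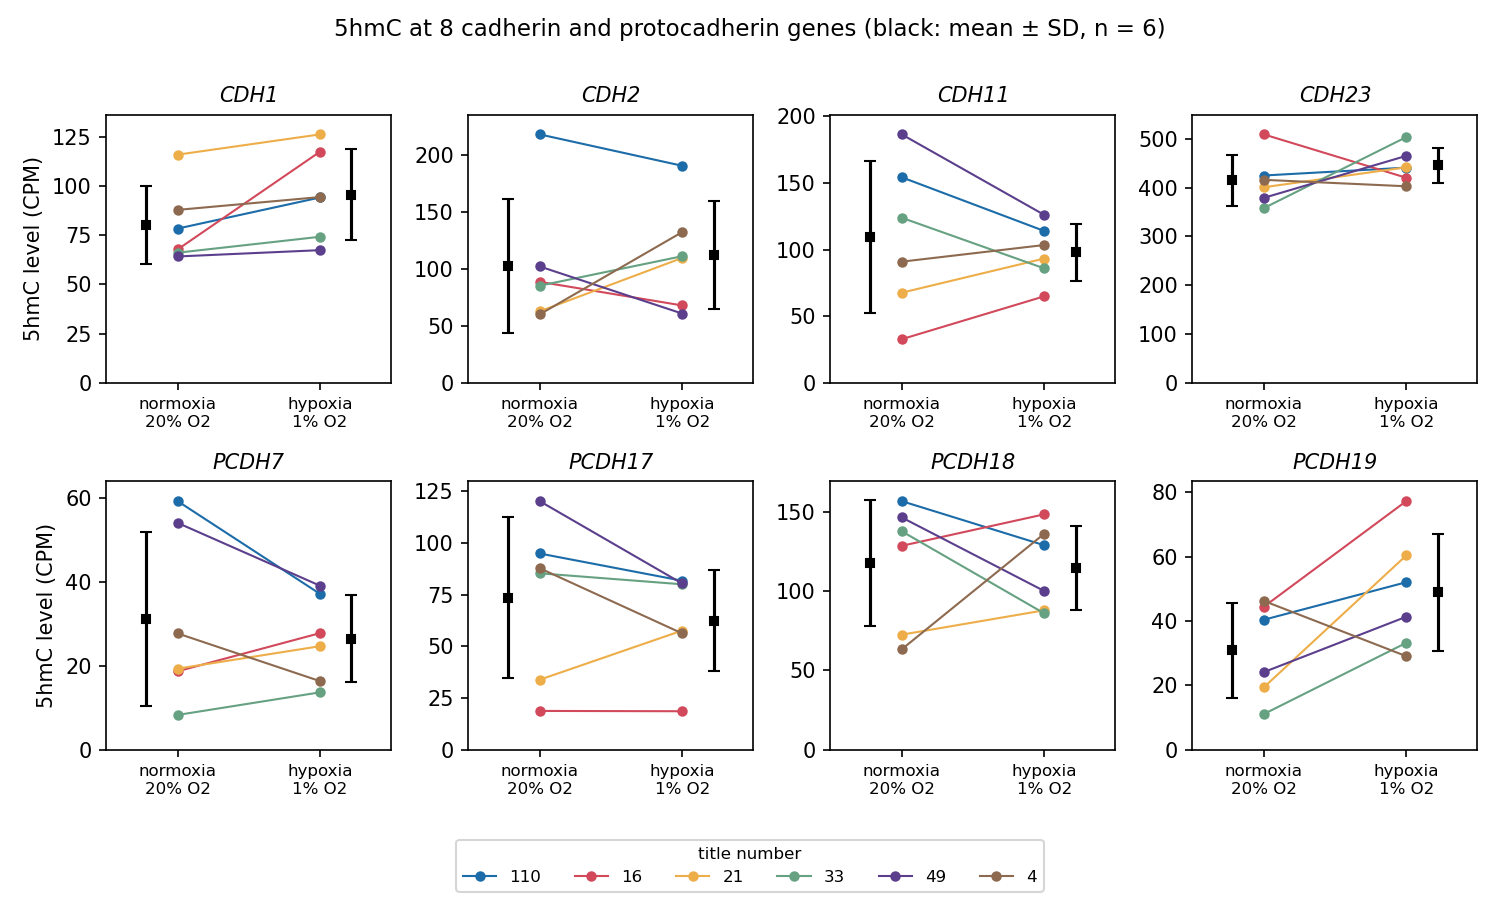
5hmC level in CPM (vertical axis, own scale per panel) of CDH1, CDH2, CDH11, CDH23, PCDH7, PCDH17, PCDH18 and PCDH19 in normoxia and hypoxia libraries. Coloured lines join libraries of 1 title number, and black marks are means with SD (n = 6 each). The lines cross in most panels, the CDH1 lines all slope upward, and number 110 tops CDH2 in both groups.

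No member was called between hypoxia and normoxia. In edgeR's quasi-likelihood test with Benjamini-Hochberg adjustment, 0 of 11868 tested genes (0%) had an adjusted p under 0.05, and 0 of the 18 members. DESeq2 also called 0 genes. Of 25337 genes fitted there, 175 were higher and 336 lower at an unadjusted p under 0.05, with 0 of the 18 members. At an unadjusted p under 0.05 edgeR gave 324 genes (2.73%) and again 0 of the 18 members. With the title number as a block, 4 genes (0.0337%) were called and 841 (7.09%) had an unadjusted p under 0.05, with 0 members in either count. PCDH19 came nearest in both fits, with an adjusted p of 1.00 without and 0.70 with the block in edgeR. These tests do not show that the members were equal in both groups: the SEs of 0.173 to 0.394 leave intervals that reach beyond 2-fold at several members, PCDH19 and CDH5 among them.

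The estimates lay evenly around 0, with 9 members above and 9 below. Among cadherins 8 were above and 5 below, with a median log2 fold change of 0.115. Among protocadherins 1 was above and 4 below, with a median of -0.253. Over all tested genes 5155 were above and 6713 below, with a median of -0.0431. With the block the medians were 0.142, -0.221 and -0.0212. Leaving out the normoxia library of number 21 gave medians of 0.093 for cadherins and -0.367 for protocadherins. Within the sequencing lanes, the cadherin median was 0.057 in lane 7 (4 numbers) and 0.206 in lane 8 (2 numbers), and the protocadherin median -0.063 and -0.296. CDH3 and PCDH7 passed the filter in lane 8 and not in lane 7, so the lane medians do not cover the same genes. The PCDH19 log2 fold change was 0.87 ± 0.429 in lane 7 and 0.02 ± 0.538 in lane 8, and the difference between lanes was not tested. Medians were also taken within each number, from hypoxia minus normoxia in log2(CPM + 2) and not from the edgeR estimates. Between numbers these varied with an SD of 0.0939 for cadherins and 0.387 for protocadherins. The difference had the same direction in 6 of 6 numbers at 2 of 18 members (11.1%), CDH1 upward and PCDH9 downward, against 506 tested genes (4.26%). Both counts rest on the pairing of numbers 33 and 4, which is in doubt. Hypoxia 33 resembled normoxia 4 (r = 0.504 across tested genes) more than normoxia 33 (0.417), and hypoxia 4 resembled normoxia 33 (0.414) more than normoxia 4 (0.136). With these numbers exchanged neither gene would have 6 of 6: CDH1 held 74.2 CPM in hypoxia 33 and 87.8 CPM in normoxia 4, and PCDH9 50.8 CPM in hypoxia 4 and 49.6 CPM in normoxia 33. The same doubt touches every count within numbers, the blocked fit and the means of numbers 33 and 4. No member had groups that did not overlap, as against 12 tested genes (0.101%).

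**Figure D3:**
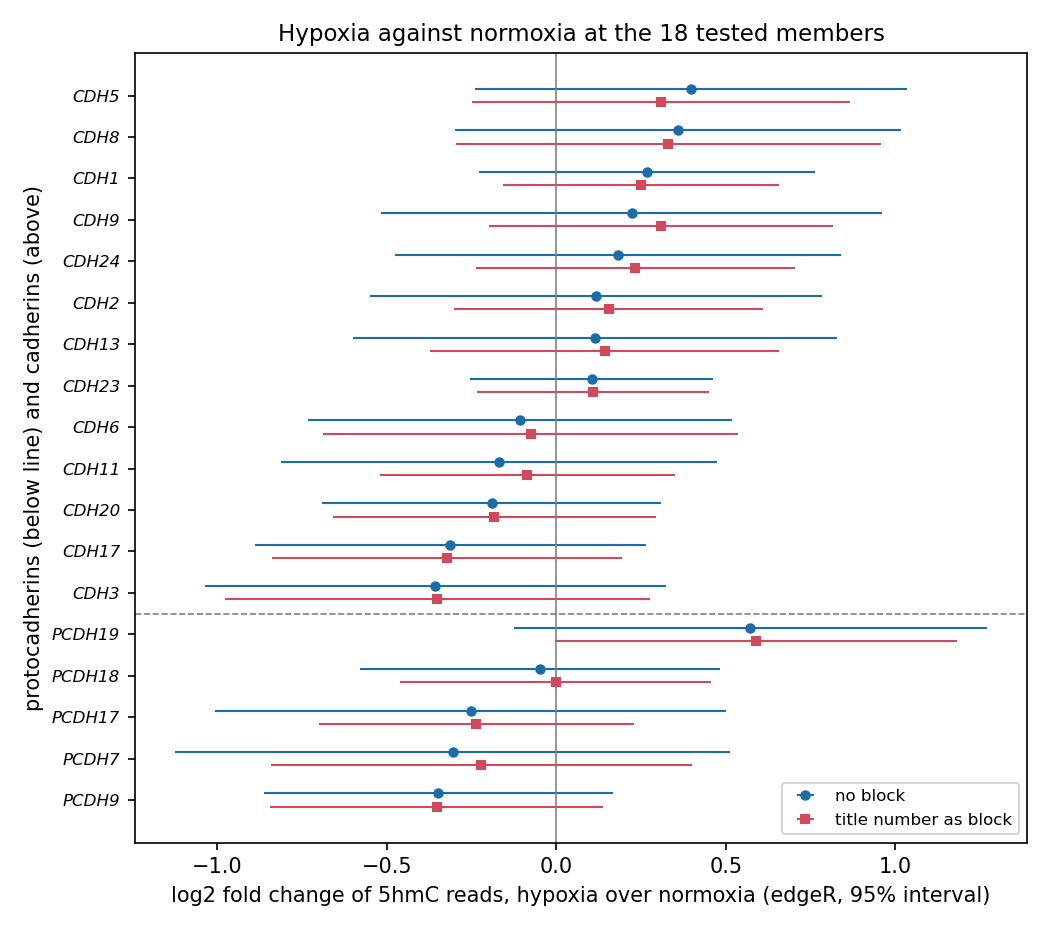
Log2 fold change of hypoxia over normoxia (horizontal axis) for the 18 tested members, with 95% intervals, from edgeR without the title-number block (blue circles) and with it (red squares). Cadherins stand above the dashed line and protocadherins below. All intervals include 0, and 9 members lie on each side of it.

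Several members differed between the title numbers. This comparison was added after the data had been seen: in the edgeR model with number and oxygen, an F-test asked whether the 6 numbers differed. It called 7 of 18 members (38.9%) at an adjusted p under 0.05, against 1520 of 11868 tested genes (12.8%). Among the 11111 tested genes with mean reads in the range of the members, the share was 13.4%. The called cadherins were CDH2, CDH9, CDH11, CDH13 and CDH24, and the called protocadherins PCDH7 and PCDH17.

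PCDH17 stood out for number 16, where the means of the other numbers ran from 45.7 CPM (number 21) to 100.4 CPM (number 49). Number 16 held 18.5 CPM in hypoxia and 18.7 CPM in normoxia, from 6 and 8 reads. Its highest number mean was 5.39-fold above the lowest, with an edgeR adjusted p of 0.00541. CDH11 was also lowest in number 16, at 64.9 CPM in hypoxia and 32.7 CPM in normoxia. It was highest in number 49, at 126 and 187 CPM (ratio of number means 3.2, edgeR adjusted p = 0.0305). Thus number 16 was low at both CDH11 and PCDH17, under both oxygen levels.

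CDH2 was highest in number 110, with a mean of 205 CPM against 78.4 to 98.3 CPM in the other 5 numbers (edgeR adjusted p = 0.0350). PCDH7 had its highest mean in the same number, 48.3 CPM, closely followed by 46.6 CPM in number 49, and its lowest in number 33, 11 CPM (edgeR adjusted p = 0.0430). CDH13 and CDH9 shared that lowest number. CDH13 averaged 23.7 CPM in number 33 and 78.5 CPM in number 49 (edgeR adjusted p = 0.0422). CDH9 averaged 28.6 CPM in number 33 and 97.7 CPM in number 21 (edgeR adjusted p = 0.0322). CDH24 was highest in number 4, at 109 CPM in hypoxia and 108 CPM in normoxia, and lowest in number 110, with a mean of 34.1 CPM (edgeR adjusted p = 0.0343). The 7 genes thus did not rank the numbers alike. CDH23, with the most reads, ranged only from 409 to 465 CPM between numbers, a ratio of 1.14 (edgeR adjusted p = 0.994).

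These calls rest on 2 libraries per number, and single libraries decided most of them. PCDH17 kept its call in 11 of 12 fits that left out 1 library and lost it without the normoxia library of number 16 (edgeR adjusted p = 0.102). CDH11 kept its call in 9 of 12, CDH2 in 6, CDH9 and CDH24 in 4 each, PCDH7 in 3 and CDH13 in 2. Calls over all genes varied with the same libraries, from 845 to 3475 in place of 1520. Only 1 of 18 members in place of 7 was called without the normoxia library of number 110 (PCDH17), with 996 of 12273 tested genes. It was also 1 of 18 (CDH2) without that of number 16, with 904 of 12327 genes. In these 2 fits the share of members called was not above that of all tested genes. There were 2 of 18 without the hypoxia library of number 110 (1173 of 12407 genes) or 16 (1120 of 12335). The same held without the normoxia library of number 33 (907 of 12394 genes) or 49 (845 of 12227). There were 3 of 17 without the hypoxia library of number 33 (1036 of 12083 genes). Without that of number 49 it was 4 of 17 (1106 of 12152), and without that of number 4 it was 4 of 18 (1756 of 12267). Without both libraries of number 16, the adjusted p of PCDH17 was 0.421, and without both of number 110 that of CDH2 was 0.98. DESeq2's likelihood ratio test called PCDH17 alone of the members (adjusted p = 0.0056) and 921 of 25337 fitted genes in all. Numbers 110, 16, 21 and 33 were sequenced on lane 7 and numbers 49 and 4 on lane 8, so differences between these sets of numbers and between lanes cannot be told apart. Within lane 7 CDH2 and PCDH17 were called, among 834 called of 11537 tested genes.

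Some marker genes of cell types were also called between numbers, to be read against the 12.8% of all tested genes. The stromal markers summed to 666 CPM in number 21 and 1085 CPM in number 33, with ITGB1 and PDGFRA called of 7 tested. The smooth muscle and pericyte markers summed to 120.5 CPM in number 33 and 348 CPM in number 49, with ACTA2 called of 3 tested. One gene each was called among 6 tested endothelial (VWF), 2 epithelial (GRHL2) and 7 immune (SPI1) markers, and 0 of 2 neural and of 1 adipocyte marker. In a bulk culture a different mix of cells and a different level per cell cannot be told apart, and the part of these markers in the members' differences was not tested.

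**Figure D4:**
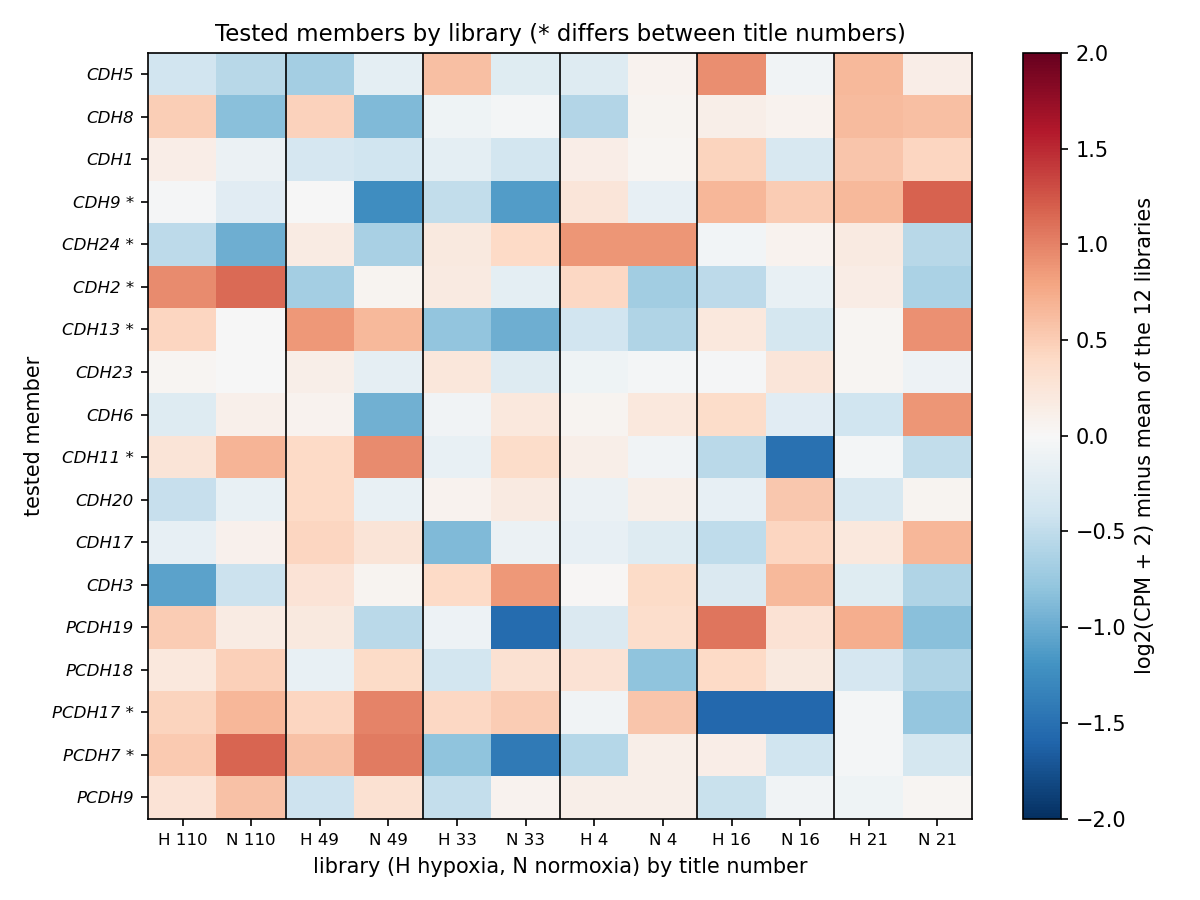
Heat map of log2(CPM + 2) minus the gene's mean over 12 libraries for the 18 tested members. Libraries are ordered by title number (hypoxia then normoxia within each), and an asterisk marks the 7 members that differed between numbers. PCDH17 is low in both libraries of number 16, and CDH2 is high in both of number 110.

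Some members lie next to each other in the pig genome, in the gene order of RefSeq (assembly Sscrofa11.1). CDH18, CDH12, CDH10, CDH9 and CDH6 follow one another with no other coding gene between them. In that row the tested CDH9 and CDH6 had log2 fold changes of 0.22 and -0.11. CDH1 and CDH3 are neighbours in the same sense and lay on opposite sides of 0 (0.27 and -0.36). CDH8 and CDH11 are neighbours as well, and lay on opposite sides too (0.36 and -0.17). None of these genes was called, so the pairs are not shown to differ.

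Other genes of cadherin adhesion were read from lists of catenins, desmosomal proteins, atypical cadherins, nectins, E-cadherin repressors, cadherin-cleaving proteases and regulators of the clustered protocadherins. Of 65 listed genes 63 had a row and 47 were tested, of which 0 were called in either fit. Their estimates were above 0 for 16 and below for 31, with a median of -0.0532 against -0.0431 over all tested genes. At an unadjusted p under 0.05 there were 0 without the block (2.73% of all tested genes) and 3 with it (6.38%, against 7.09% of all tested genes). Among 9 tested catenins 4 were above and 5 below 0. CTNNB1, the gene of beta-catenin, had a log2 fold change of 0.39 ± 0.331, CTNNA1, the gene of alpha-catenin, -0.07 ± 0.261, and CTNND1, the gene of the juxtamembrane p120 catenin, -0.01 ± 0.259. CTNNA3, an alpha-catenin of heart and testis, had the smallest p of the catenins (0.41 ± 0.313).

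Among 15 tested atypical cadherins 4 were above and 11 below 0. FAT4, a giant cadherin of planar polarity, averaged 209.7 ± 46.2 CPM in hypoxia and 283 ± 91.9 CPM in normoxia (log2 fold change -0.43 ± 0.245). Of the 4 tested nectin genes 2 were above and 2 below 0. NECTIN2, an immunoglobulin-type adhesion gene, averaged 138 ± 42.1 and 90.4 ± 42.2 CPM (0.57 ± 0.292), with an edgeR adjusted p of 0.465 in the blocked fit. Desmosomal genes were 2 above and 3 below 0 (PKP2, the gene of plakophilin 2, -0.19 ± 0.292), and E-cadherin repressors 1 above and 3 below (SNAI2, the gene of Slug, -0.18 ± 0.301). Proteases were 2 above and 1 below 0. Regulators of the clustered protocadherins were 1 above and 6 below (WAPL, a cohesin release factor, -0.48 ± 0.354). Between title numbers 9 of the 47 were called (19.1%, against 12.8% of all tested genes): CTNNB1, JUP, FAT1, FAT3, DCHS2, NECTIN2, SNAI2, ADAM10 and NIPBL.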

How the data were processed

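For each library the authors deposited a table of raw counts by gene symbol and a list of peaks. Tools named in the submitters' processing notes are edgeR, HTSeq, Picard, MACS2 and Bowtie2. The sources used here give no genome build, annotation or counted feature, so the counts may cover exons or whole genes. DNA reads do not tell overlapping genes apart by strand. Peaks and the input sample were not used here. Table lines without a gene were dropped: 88 to 93% of reads fell outside any feature, 4.12 to 10.3% had low alignment quality, 0.005 to 0.0095% were ambiguous, and a row with a blank name held 0 reads.

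The count test was that of edgeR 4.0.16 under R 4.3.3 (TMM after filterByExpr, minimum count 10, minimum total 15, then glmQLFit, glmQLFTest, Benjamini-Hochberg over 11868 genes, threshold 0.05), hypoxia against normoxia, with and without the title number as a block. SEs were taken as the fold change (log2) divided by the square root of F, and the intervals are 95%. CPM, sums and ranges were computed with pandas 2.3.3 in Python 3.11.15. Alternatives were DESeq2 1.42.0, other scalings, no filter, lanes alone and left-out libraries. The scripts were tested on data simulated with the spread of the blocked fit, so that run does not measure the power of the unblocked test. Pairing comes from the numbers that open the titles. After removal of group means, libraries of 1 number correlated across tested genes at 0.136 to 0.478, all above 0.1, but numbers 33 and 4 correlated with each other at 0.504 and 0.414, against 0.417 and 0.136 with their own partners, so their pairing may be crossed. They were kept as labelled. The biological coefficient of variation was 0.305, and 0.21 with the block. Of 66 library pairs none agreed within sampling noise (lowest chi-square per degree of freedom 1.25).

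All 35 members matched RefSeq symbols. Their levels per length were not computed, since no gene lengths were at hand. Members, lists and rules were chosen with earlier results of these data known. The genes named are the members highest in CPM, those with the smallest p in each direction, fixed well-known members, and the beta-, alpha- and p120-catenin genes with the smallest-p gene of each pathway list, of which 1 is not reported here. CDH24 and other members in the comparison of title numbers, the genes called there and CDH10, CDH12, CDH15, CDH16, CDH18, PCDH15, PCDH20, PCDHA11 and PCDHB6 were named after their values were seen.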

Additional observations from a re-analysis of the deposited data

Results flagged for a closer look

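Among 40 sets of 6 libraries checked, each 1 quantity in 1 group, a single one held a library far from the others, and chance marks about 1 in 20 such sets. In normoxia, the CDH2 level of number 110 was 218 CPM and the next highest was 102 CPM. The gap between them was 0.734 of the whole normoxia range. The hypoxia library of the same number was also the highest of its group for CDH2, at 191 CPM. Without the normoxia library of number 110 the CDH2 log2 fold change was 0.50, and it was 0.12 with all libraries.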

How the results depend on the processing

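No alternative called a member between hypoxia and normoxia, and the lowest adjusted p of any member over 26 alternatives ranged from 0.316 to 1.00. With the title number as a replicate block 4 genes were called, likewise with the block and library size as the only scaling, and leaving out libraries gave 0 to 12 (12 in the blocked fit without number 21). The block changed no member's call. With the block and library-size scaling 1 of 18 members had an unadjusted p under 0.05, beside 468 genes higher and 371 lower of 11868. When libraries were left out there were 0 to 1. The 1 was PCDH19, of 17 members in the blocked fit without number 4, beside 451 genes higher and 798 lower of 11680. In neither fit was the share of members above that of all tested genes. Library-size scaling alone moved the split of genes at an unadjusted p under 0.05 from 109 higher and 215 lower to 159 and 123, and with the block from 308 and 533 to 468 and 371. Of the 18 tested members 8 kept their direction under every alternative that tested them: CDH1, CDH8, CDH9, CDH23, PCDH9 and PCDH19 in all 26, and CDH3 and PCDH7 in fewer, since they did not pass the filter in each. Some of them came close to 0 on the log2 scale: CDH9 at 0.011, PCDH19 at 0.015, CDH23 at 0.030 and PCDH7 at -0.027. The PCDH18 log2 fold change became 0.0048 with library-size scaling, 0.047 with the block added and 0.22 in lane 8 alone. In lane 8 alone that of CDH5 became -0.37, CDH6 0.36, CDH17 0.18 and CDH20 0.21, and in lane 7 alone that of PCDH17 0.036. With libraries left out CDH11 ranged from -0.35 to 0.056, CDH13 from -0.093 to 0.35, CDH2 from -0.087 to 0.50, CDH24 from -0.021 to 0.49, CDH6 from -0.29 to 0.14 and PCDH18 from -0.24 to 0.13. The cause was not tested. The cadherin median stayed positive (0.057 to 0.206) and the protocadherin median negative (-0.384 to -0.027) in all 26. These alternatives refit the same libraries or parts of them, so they are not independent of one another. The summed cadherin difference ran from 31.2 to 112 CPM over 17 alternatives, and the protocadherin one from -66.4 (lane 8) to 30.2 CPM (lane 7). Between title numbers, DESeq2 called 921 and no count filter 2303 of 25337 fitted genes. Lane 7 alone gave 834 of 11537 genes, lane 8 alone 219 of 14181, and left-out libraries 845 to 3475. The members called were 1 with DESeq2, 7 with DESeq2 size factors in edgeR, 7 with no count filter and 4 with library-size scaling. There were 2 in lane 7, 0 in lane 8, and 1 to 7 with libraries left out. For DESeq2 size factors and library-size scaling no count over all genes is given here. Depth limits the 17 members that were not tested in the main fit, whose means were below 10 reads. All 35 members were fitted with DESeq2 and without the count filter, but the directions given here cover only the 18. Levels per length and their alternatives were not run.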
